A study of Chlamydomonas reinhardtii with 4 samples.

Results

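The broadest H3K27ac regions common to 4 ChIP-seq libraries of the unicellular green alga Chlamydomonas reinhardtii were described. Overlapping peaks of the 4 deposited peak lists (1 bp or more) were merged into 15521 regions. Of these, 13909 lay on the 17 numbered chromosomes and held exactly 1 peak from each library (shared regions below). The 695 regions with the largest mean of the 4 peak widths, the widest 5%, are the subject here. The libraries came from vegetative cells: wild type (WT) and DNMT1 knockout (dnmt1) of CC-5155, a mating type plus (mt+) strain, and the same 2 genotypes of CC-5325, a mating type minus (mt−) strain. Cells were grown on acetate medium in continuous light and precipitated with 1 anti-H3K27ac antibody, and the labels do not say how many knockout clones were used. Each of the 4 groups had 1 library, and strain and mating type changed together, so values are described and no difference between groups was tested. Lists of 4 values below follow the order WT mt+, dnmt1 mt+, WT mt−, dnmt1 mt−. The set3 strains that the design text also names are not analysed here.

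Acetylation of histone H3 at lysine 27 is laid down by histone acetyltransferases, loosens the contact of histone and DNA and marks active promoters and enhancers. In mammals, unusually long acetylated stretches are known from genes of cell identity. DNMT1 belongs to the family of enzymes that methylate cytosine in DNA, a mark usually associated with silent chromatin. Width was the measure that chose the regions, so their widths below are a description. The positions are those of the deposited lists, counted from 1, and no gene was assigned to them because the gene table at hand describes another build.

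The widest regions spanned about double the length of a usual shared region, in every library. Their median mean width was 1702 bp (interquartile range 1601 to 1876), against 829 bp (642 to 1067) over all shared regions. By library the median width was 1708, 1703, 1712 and 1708 bp. These medians lay within 9 bp of each other. The regions made up 4.54% to 4.64% of the peaks of a list and 9.28% to 9.58% of the bases under its peaks. Most sat close to the threshold: 103 of the 695 reached a mean width of 2000 bp and 23 reached 2500 bp.

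**Figure D1:**
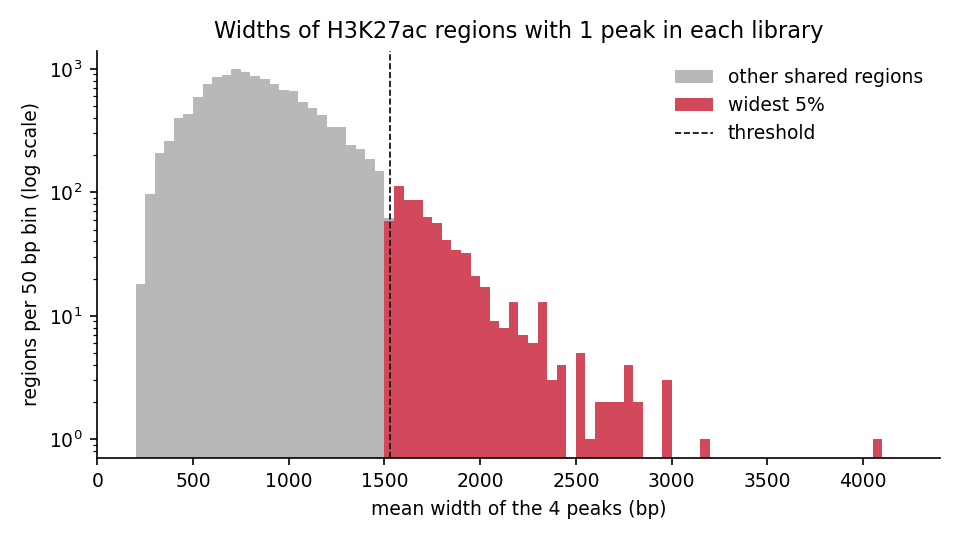
Number of shared regions (log axis) in 50 bp bins of the mean width of their 4 peaks in bp, with the widest 5% in red, the others in grey and the threshold dashed. The distribution falls off without a gap at the threshold, and 1 region stands apart at 4077 bp.

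The threshold cut through a continuous run of widths. The last region inside, at chromosome 1, 2514828 to 2516417, had a mean width of 1529 bp. The first region outside, at chromosome 6, 5639816 to 5641427, had 1528 bp. Inside it followed chromosome 14 at 3714064 to 3715646 and chromosome 15 at 2920604 to 2922455, both with 1529 bp. Outside it followed chromosome 13 at 3819823 to 3821388 with 1527 bp and chromosome 3 at 2509523 to 2511148 with 1526 bp.

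The widest region of all lay at chromosome 8, 2202929 to 2207038. Its peak measured 4098, 4051, 4096 and 4062 bp. It stood alone, with 13368 bp to the nearest other region. The second, at chromosome 3, 6585809 to 6589023, measured 3168, 3174, 3136 and 3173 bp. The third, at chromosome 15, 2691761 to 2694791, measured 3009, 3013, 2962 and 2966 bp. The 4 peaks nearly coincided in each of these, and no library was the narrowest in all of them.

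The other 7 of the 10 widest regions had mean widths of 2761 to 2982 bp. Chromosome 5 held a pair of them, at 350372 to 353415 (3007, 2990, 2935 and 2995 bp) and 796562 to 799487 (2791, 2878, 2816 and 2856 bp). Another was on chromosome 16 from 711876 to 714908, with 2920, 2921, 2982 and 2981 bp, and its 4 summits lay within 80 bp. The region of chromosome 15 from 3248249 to 3251156 had 2908, 2836, 2822 and 2779 bp. Of all 10 it was the one whose widths differed most between libraries, and still by less than 5%. The last 3 were on chromosome 13 (starting at 4507088 and ending at 4509946), chromosome 3 (2096558 to 2099381) and chromosome 6 (5063253 to 5066051), each with its 4 widths between 2740 and 2819 bp. Summit enrichment, the authors' ratio of ChIP signal over control at the highest point of a peak, varied more than width among them. On chromosome 13 the fold enrichment was 8.10, 5.10, 6.90 and 7.92, while the width stayed between 2749 and 2819 bp.

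Among regions with 1 peak in every list, great width was repeatable between libraries. When regions were chosen by the mean width in 3 libraries, 638 to 646 of the 695 were also among the widest 5% in the library left out. The share was lowest, 91.8% (exact 95% binomial interval 89.5 to 93.7, counting error only), with WT mt+ or dnmt1 mt+ left out and highest, 92.9% (90.8 to 94.7), with dnmt1 mt− left out. The narrowest peak that any such region had in the left-out library was 1272 bp, and it still ranked at the 87.4th percentile of that list's widths. The left-out library took part in that limit to 1 peak, so wide regions that were split in it could not count against the repeat, and 92 to 99 of the 695 widest peaks of a list lay in regions with more than 1 peak in some list. Between 679 and 683 of the 695 regions were chosen again in each case. Across the 695 regions the widths of any 2 libraries were correlated with Spearman's rho of 0.88 to 0.91, and across all 13909 with 0.96 to 0.97. These correlations are across regions of the same libraries, which are not independent replicates.

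At the median, the borders of wide regions moved between libraries by about as many bases as those of all shared regions. The left border spread over a median of 55 bp across the 4 libraries (interquartile range 36 to 82.5) and the right border over 57 bp (38 to 82). Over all shared regions both medians were 54 bp. Both borders stayed within 100 bp in 485 of the 695 (69.8%, exact interval 66.2 to 73.2), against 75.1% of all shared regions. In proportion, wide peaks varied less. The widest peak of a region exceeded its narrowest by a median of 5.02%, against 10.3% over all shared regions. The ratio of the widest to the narrowest was at most 1.1 for 610 of the 695 (87.8%, exact interval 85.1 to 90.1), against 48.5% of shared regions. For 9 regions the excess reached 25%, against 1943 of 13909 shared regions (14.0%). In 3 of the 9 both dnmt1 peaks were the wider ones, and they are described with the knockouts. In the other 6 at least 1 dnmt1 peak was no wider than a WT peak. At chromosome 14, 954361 to 956717, the widths were 1790, 2173, 2209 and 2357 bp, and at chromosome 3, 4405199 to 4407156, they were 1627, 1502, 1532 and 1958 bp. The first was at least 100 bp wider in dnmt1 within each strain, with WT mt+ the lowest and dnmt1 mt− the highest. In the second dnmt1 mt− was high. Fold enrichment stayed between 6.13 and 6.59 in the first and between 4.66 and 5.54 in the second.

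Most of the widest regions were also strong, but width among them did not track strength. The median fold enrichment was 6.83, 6.93, 6.46 and 7.12 in the 4 libraries, against 5.75, 5.54, 5.49 and 5.97 over all shared regions. These ratios depend on depth and input, so strength was compared by rank within a list. The mean percentile of fold enrichment had a median of 76.7, against 54.6 over all shared regions, and that of −log10 q, the authors' significance score, a median of 82.0 against 53.0. All 4 peaks lay above the median fold enrichment of their list in 470 of the 695 regions (67.6%, exact interval 64.0 to 71.1), against 35.5% of all shared regions. In the next 5% by width the median of the mean fold percentile was 72.2, so high strength was not particular to the widest 5%. Mean width and mean fold percentile were correlated across all shared regions with rho = 0.63, and across the 695 with rho = 0.035. Peaks of 1 list share depth and threshold, so these correlations are descriptions across regions. The 695 span only the top 5% of widths, and a cut range can lower a correlation, so the values are not directly comparable.

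Regions that were wide and weak in fold enrichment existed but were few. In 52 regions (7.48%) all 4 peaks ranked below the median fold enrichment of their list, against 33.7% of all shared regions. In 9 regions (1.29%) all 4 ranked below the 25th percentile, against 15.6%. The weakest, at chromosome 17, 3672117 to 3673997, had fold enrichments of 2.85, 3.24, 3.26 and 3.03 over widths of 1857 to 1876 bp. A region at chromosome 16, 5523240 to 5525762, was among the widest at 2516 bp on average and yet had 3.23, 3.35, 3.39 and 4.10. Its 4 widths lay between 2508 and 2522 bp, so low enrichment did not go with unstable borders there. Chromosomes 15 (3378577 to 3380331), 13 (3923863 to 3925576) and 1 (4546272 to 4547845) held the other 3 of the weakest 5, with fold enrichments of 2.90 to 3.92. Not all of these 5 were low by −log10 q. Those on chromosomes 17, 16 and 1 had values of 67.6 to 120, and those on chromosomes 15 and 13 had 26.6 to 37.9. The median over all shared regions was 81.1 to 88.3, depending on the library.

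The strongest wide region lay at chromosome 11, 89222 to 90773. It had fold enrichments of 9.48, 9.66, 8.61 and 10.1 and widths of 1517 to 1537 bp, just inside the threshold. Next came 580120 to 581771 on chromosome 8, with 9.34, 9.48, 9.07 and 8.96, and 2920604 to 2922455 on chromosome 15, with 8.71 to 10.6. Chromosome 9 followed with 912620 to 914434 (8.47 to 10.3) and chromosome 11 with 1474784 to 1476612 (8.65 to 9.05). The mean widths of these 5 ranged from 1529 to 1772 bp, so none of them was among the 10 widest. In all, 37 regions ranked above the 90th percentile in every list (5.32%, against 1.63% of all shared regions).

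Compared with all shared regions, summits of wide regions lay farther off centre and changed place between libraries more often. The distance from the summit to the nearer border had a median of 31.9% of the peak width, where 50% is the centre, against 42.2% over all shared regions. In bases the distance was 563 bp against 339 bp. In 163 of the 695 regions (23.5%, exact interval 20.3 to 26.8) the mean position fell within the outermost 25% of the width on either side, against 2.71% of all shared regions. The 4 summits lay within 200 bp of each other in 475 regions (68.3%, 64.7 to 71.8), against 89.5% of all shared regions. Relative to width the median spread was 6.49%, below the 9.36% over all shared regions. The upper quartile was 16.0% against 15.1%. In the 696 regions next in width, the median distance from the summit to the nearer border was 34.4% of the peak width. Their 4 summits lay within 200 bp of each other in 70.1%. By these measures, summits that were off centre or changed place were thus not particular to the 695 regions.

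**Figure D2:**
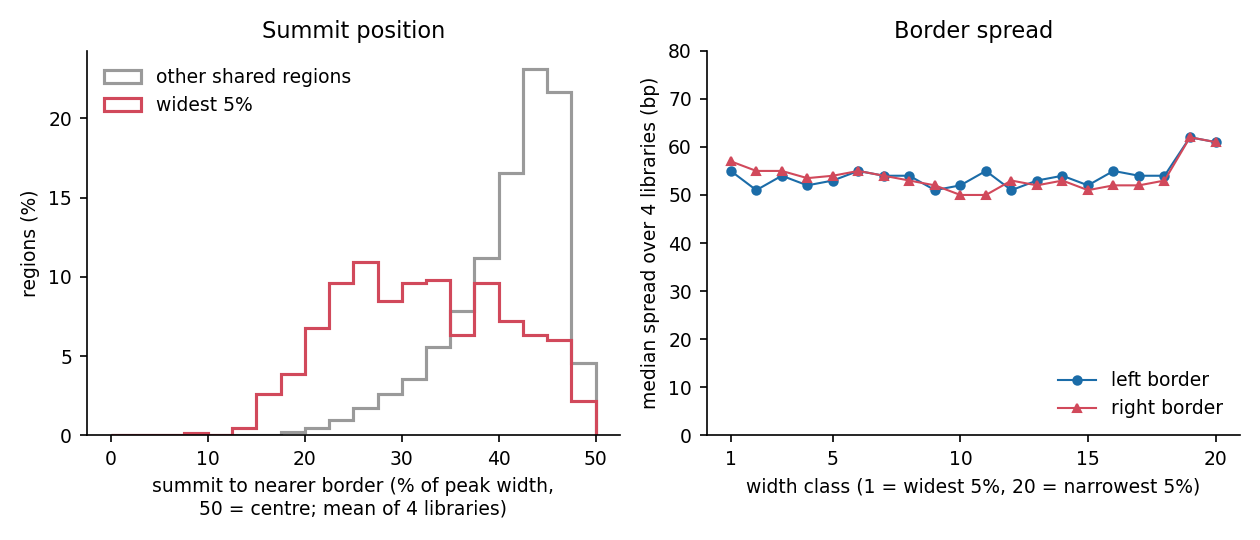
Left, percentage of regions by the distance from summit to nearer border, as % of the peak width averaged over the 4 libraries, for the widest 5% (red) and other shared regions (grey). Right, median spread in bp of the left and right border over the 4 libraries in 20 classes of width; the widest class has 55 and 57 bp, and the 2 narrowest classes are the highest.

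In 119 of the 695 regions the summits were spread over more than 500 bp, against 304 of 13909 shared regions (2.19%). The farthest spread was 2013 bp at chromosome 15, 2691761 to 2694791, where the 4 summits lay at 2692339, 2693453, 2694352 and 2694351. The widest region of all was similar, with summits at 2203307, 2204193, 2205092 and 2205082. In both, the mt− libraries nearly coincided and the mt+ libraries lay to their left. At chromosome 5, 796562 to 799487, both WT summits lay near the left end (797011 and 797061) and both dnmt1 summits near the right end (798520 and 798468). That genotype pattern was seen in 18 of the 119 when each summit was assigned to the side of the midpoint between the outermost summits. Another 8 were divided by mating type. In 6, WT mt+ went with dnmt1 mt−, the crossed pairing. In the rest a single library stood apart, which was WT mt+ 17 times, dnmt1 mt+ 25 times, WT mt− 23 times and dnmt1 mt− 22 times. No library was the one apart in most cases. These patterns were counted in the 119 only, so they have no background among the other shared regions, and none was tested.

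The widest regions were found on all 17 chromosomes, roughly in proportion to the shared regions there. The share ranged from 3.51% on chromosomes 7 (29 of 827) and 11 (18 of 513) to 6.94% on chromosome 15 (32 of 461, exact interval 4.80 to 9.66). Chromosome 12 had the most, 68 of 1344. The exact interval of a chromosome's share held the share over all chromosomes, 695 of 13909, on each of the 17. On chromosome 7 it did so narrowly, with an upper bound of 4.9975%. The shared regions of chromosome 15 had the lowest median mean width of any chromosome, 744 bp.

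Wide regions tended to stand apart from other peaks. The gap to the nearest region had a median of 4006 bp (interquartile range 2331 to 6269), against 2893 bp (1218 to 4950) over all shared regions. On the side with more room the medians were 8845 and 7727 bp. Only 70 of the 695 had another region within 1 kb (10.1%, exact interval 7.94 to 12.6), against 21.5% of shared regions. The rule of 1 peak per list removes regions in which close peaks overlap a peak of another list, so the rule itself bears on this gap. In the classes of width from 2 to 6, counted from the widest, the median gap was 3506 to 3876.5 bp. The larger gap was thus not particular to the widest 5%. The median gap was shorter toward the narrow classes of width, down to 1153 bp in the narrowest 5%.

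Some wide regions lay near each other. Another of the 695 lay within 10 kb of 64 (9.21%), forming 29 pairs and 2 groups of 3. This share follows the size of the set, at 4.32% for the widest 2% and 19.1% for the widest 10%, and no background was set beside it. The groups were at chromosome 2, 293163 to 314829, with mean widths of 1594 to 1922 bp, and chromosome 6, 3183877 to 3204644, with 1656 to 1837 bp. Within 50 kb of the first or last region of a chromosome lay 7 of the 695 (1.01%, against 1.64% of shared regions), and 3 of them were at the start of chromosome 8. The stretch of chromosome 6 from 300 to 800 kb, taken as the neighbourhood of the mating type locus, held 1, near its right edge at 793178 to 794800, with widths of 1501, 1538, 1566 and 1552 bp, of 67 shared regions there.

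Wider acetylated stretches than these were left out by the rule of 1 peak per list. Of the 695 widest peaks of each list, 589, 583, 583 and 577 lay in the regions described here and 92, 93, 94 and 99 in regions with more than 1 peak in some list. There were 326 regions on numbered chromosomes with a peak in every library and more than 1 in at least 1 of them. In 66 of these the widest peaks averaged at least as much as the threshold. The 5 longest merged regions all lay on chromosome 15 between 2612564 and 2770369, at 6451 to 14664 bp. The longest, 2660238 to 2674901, was 1 peak of 14594 bp in WT mt+ and 1 of 14599 bp in WT mt−, but 3 peaks in dnmt1 mt+ and 2 in dnmt1 mt−, the widest of them 7255 and 7209 bp. The others were not divided by genotype in that way: that at 2645300 to 2652542 held 2, 5, 5 and 1 peaks in the 4 lists. Of the 695, 3 lay in this stretch, at 2691761 to 2694791, 2630820 to 2633534 and 2628430 to 2630242, the first only 167 bp from the region of 12911 bp beside it.

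Loss of DNMT1 went with little change in the width of these regions. The median difference in width, dnmt1 minus WT, was -3 bp in the mt+ strain (interquartile range -48 to 37.5) and 1 bp in the mt− strain (-42 to 40). In size without sign it was 43 and 42 bp, close to the 40 bp over all shared regions in both strains. A dnmt1 peak at least 25% wider than the WT peak was found for 3 regions in the mt+ strain (0.432%, background 1.81% of all shared regions) and 4 in the mt− strain (0.576%, background 2.99%). The reverse, a WT peak at least 25% wider than the dnmt1 peak, was found for 0 of 695 in the mt+ strain, which allows a share of up to 0.432% (background 3.55%), and 2 in the mt− strain (0.288%, background 1.78%). A fixed ratio asks for more bases of a wide peak than of a narrow one, so a limit in bases was added after these counts were seen.

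By that limit, 15 of the 695 were at least 100 bp wider in dnmt1 in both strains (2.16%, exact interval 1.21 to 3.53, background 1.251%) and 5 at least 100 bp narrower in both (0.719%, 0.234 to 1.67, background 0.963%). Within the mt+ strain alone 50 were wider by that limit (7.19%, background 5.03%) and 52 narrower (7.48%, background 8.45%). Within the mt− strain 55 were wider (7.91%, background 7.29%) and 46 narrower (6.62%, background 5.68%). In direction alone, 186 were wider in both strains (26.8%, background 22.4%) and 185 narrower (26.6%, background 28.1%). Between genotypes, averaged over the strains, the width differed by a median of 0.026 on the log2 scale in either direction. Between mating types it differed by 0.025, and in the crossed contrast by 0.022. These medians were of similar size, and none was tested. The crossed contrast sets the dnmt1 over WT ratios of the strains against each other. It can hold a difference of the knockout between strains, so it is no measure of noise.

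**Figure D3:**
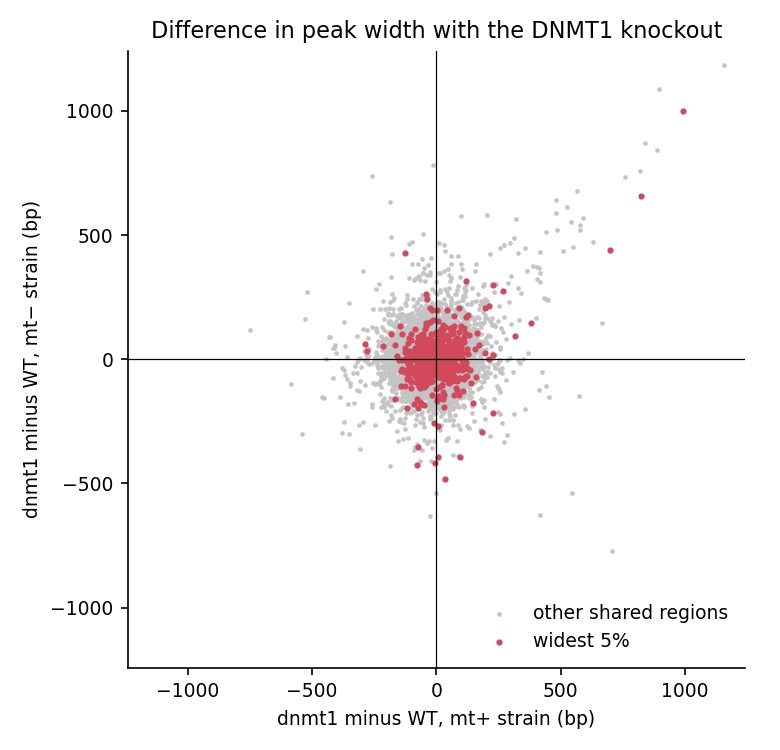
Difference in peak width, dnmt1 minus WT, in bp, in the mt+ strain (x) and the mt− strain (y), 1 point per shared region with the widest 5% in red. Most red points lie near 0, and 3 lie far out at the upper right, the farthest at 992 and 998 bp.

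A few wide regions were clearly longer in both knockouts. At chromosome 12, 6666318 to 6669449, the peak measured 2072, 3064, 2114 and 3112 bp. Both dnmt1 peaks were far longer than both WT peaks, and nearly all of the growth was at the left border, which lay 880 and 905 bp farther out. The fold enrichment there was 6.07 and 6.16 in WT and 6.65 and 8.05 in dnmt1. The next region to the left, 6659706 to 6661710, was wider too, at 1669 and 1650 bp in WT against 1936 and 1926 bp in dnmt1. Farther left, at 6656322 to 6657040, a peak was present in the knockouts (fold enrichment 6.07 and 6.14) and absent from both WT lists.

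At chromosome 16, 3565254 to 3567696, the widths were 1620 and 1698 bp in WT against 2443 and 2356 bp in the knockouts, with the right border 781 and 678 bp farther out. At chromosome 9, 4230901 to 4232883, they were 1284 and 1514 bp against 1983 and 1953 bp, with growth at both ends. Its fold enrichment was lower in dnmt1, 7.15 and 6.15 against 8.39 and 8.86, whereas the neighbouring region at 4235004 to 4235789 went from 276 and 291 bp to 785 and 771 bp. The fifth most widened region, at chromosome 15, 2270697 to 2272751, measured 1729 and 1727 bp in WT against 1959 and 2027 bp in dnmt1. Without the dnmt1 libraries in the choice, by WT widths alone, 14 regions were at least 100 bp wider and 8 narrower in both knockouts.

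**Figure D4:**
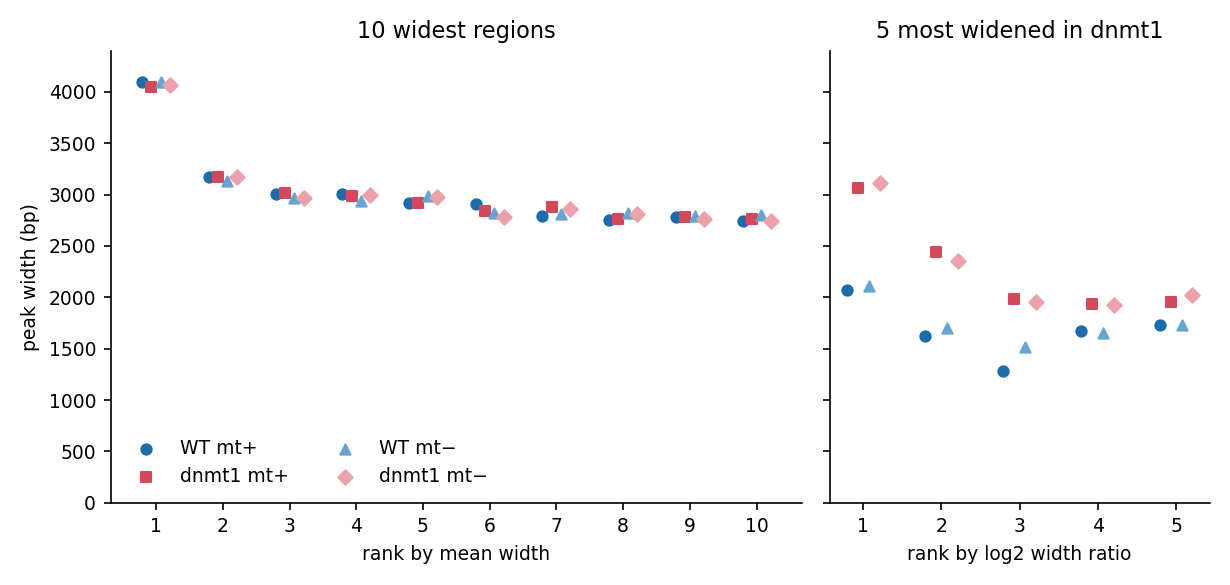
Peak width in bp in each library for the 10 widest regions, ranked by mean width (left), and the 5 with the largest log2 width ratio of dnmt1 over WT in both strains (right). The 4 libraries nearly coincide on the left, while both dnmt1 libraries lie above both WT libraries in each of the 5 on the right.

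The regions that narrowed did so by less. The largest narrowing in both strains was at chromosome 3, 5243462 to 5245230, with 1731 and 1732 bp in WT against 1565 and 1571 bp in dnmt1. It came from the left border, which lay 157 and 168 bp farther in. On chromosome 17, the region from 1301036 to 1302714 went from 1647 and 1670 bp to 1521 and 1561 bp. The other 3 began at 2442734 on chromosome 15, 8335561 on chromosome 12 and 581801 on chromosome 16. They were 104 to 198 bp narrower, and in all 5 both dnmt1 peaks lay below both WT peaks.

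Some of the widened regions lay near places where only the knockouts had peaks. Of the 15 regions at least 100 bp wider in both strains, 4 lay within 50 kb of a region that both knockouts had and both WT libraries lacked, against 30 of all 695 (4.32%). Those 4 were the first 4 of the most widened, at distances of 9277, 24805, 18758 and 2665 bp, and 2 of them are the neighbours on chromosome 12. Among all shared regions, 48 of the 174 that widened by that limit (27.6%, exact interval 21.1 to 34.9) and 4 of the 134 that narrowed (2.99%) lay as close, against 4.04% of all. The wide regions' own share, 26.7% (7.79 to 55.1), rests on 4 regions.

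In rank of strength, the widest regions stood higher in both knockouts than in the WT library of the same strain, by small amounts. Fold enrichment was ranked among the 13909 shared regions within each library. The median percentile of the 695 was 74.7, 79.3, 73.6 and 75.4 in the 4 libraries. Region by region, the median difference, dnmt1 minus WT, was 2.78 percentile points in the mt+ strain (interquartile range -6.48 to 14.4) and 1.68 in the mt− strain (-9.07 to 12.9). Within the mt+ strain 402 of the 695 ranked higher in dnmt1 (57.8%, background 49.2%) and within the mt− strain 392 (56.4%, background 49.5%). In both strains together 230 regions ranked higher in dnmt1 (33.1%, exact interval 29.6 to 36.7, background 25.3%) and 131 lower (18.8%, 16.0 to 22.0, background 26.6%). Ranked by −log10 q the medians were 0.909 and 0.834 points, with 228 regions higher in both (32.8%, background 25.6%) and 153 lower (22.0%, background 28.1%). The 30 regions near knockout-specific peaks had median differences of -0.106 and 0.252 points, and the other 665 had 2.93 and 1.79.

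**Figure D5:**
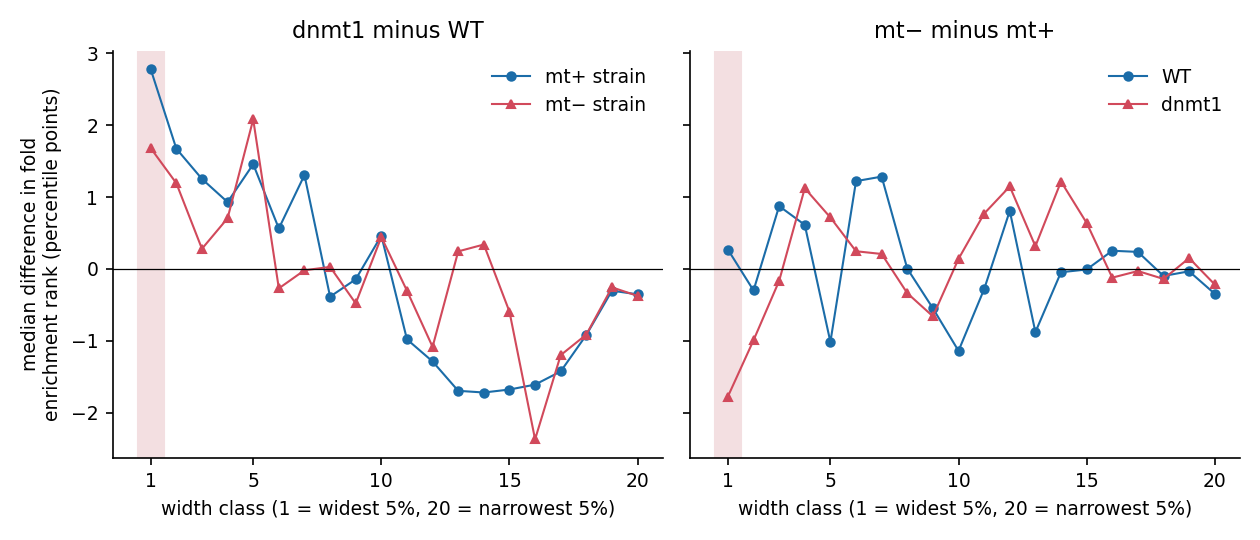
Median difference in fold enrichment rank (percentile points among all shared regions) in 20 classes of width from the widest 5% (class 1, shaded) to the narrowest, for dnmt1 minus WT in each strain (left) and mt− minus mt+ in each genotype (right). The widest class has the highest value in the mt+ strain, at 2.78, and the second highest in the mt− strain, at 1.68, while between mating types it has 0.27 in WT and -1.77 in dnmt1.

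The difference did not fall evenly with width. In the mt+ strain the 7 widest classes all lay above 0 and the 10 narrowest all below, but the lowest value was in class 14 (-1.72 points) and the narrowest class returned to -0.352. In the mt− strain class 5 was the highest (2.08), classes 6 and 7 lay below 0 and classes 13 and 14 above it. By −log10 q the highest medians were in class 3 in the mt+ strain (1.36) and class 5 in the mt− strain (1.16), not in the widest class. Ranks within a fixed set balance each other, so a rise of the wide regions and a fall of the narrow ones are the same observation. The strongest 5% of shared regions, of which 108 are also among the widest, had median differences of -0.403 and 0.475 points. Between the mating types, mt− minus mt+, the median difference of the 695 was 0.27 points in WT and -1.77 in dnmt1, and the second is as large in size as the genotype difference within the mt− strain. In both genotypes 163 ranked higher in mt− (23.5%, background 25.2%) and 186 lower (26.8%, background 25.0%), shares near the background. The comparisons of the 2 strains share no ChIP library, but the labels do not say which libraries used the same input, so an input common to them cannot be told apart from a genotype difference.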

How the data were processed

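The authors deposited 1 list per library in narrowPeak layout. The submitters' processing notes name MACS2 2.2.7.1, deepTools 3.5.1, Bowtie2 2.4.2, Picard and Trim Galore 0.6.7, with no role or order. Their options and the genome build were not given in the sources used here. Per the labels, the input also served an H3K4me1 data set. The deposited columns give a whole-number score, the fold enrichment ratio, the −log10 p-value and the −log10 q-value. Depth is unknown, and the lowest −log10 q is 2.01. The lists held 14986 to 15323 peaks and at most 2 identical intervals for any pair.

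Peaks were merged, shared regions were ranked by mean width (ties by chromosome and start), and ranks of strength were taken within a list. Intervals for shares are exact Clopper-Pearson (95%), cover counting error only and treat regions as independent. The limit for a count of 0 uses 3 counts. Regions named are the 10 widest, the 3 on either side of the threshold, the 5 most widened and 5 most narrowed in both strains, the 5 with the highest and 5 with the lowest mean fold percentile, and the largest groups within 10 kb. Neighbours of the widened regions, summit examples, the long regions of chromosome 15 and single regions by position were chosen after their values were seen. The regions, measures and limits were chosen with earlier results of these data known. On 12 of 17 chromosomes peaks lay beyond the last gene of the table at hand (assembly v5.5), so no gene or DNA sequence is given and the DNMT1 gene was not checked. Alternatives were other shares of widest regions, overlaps, q limits, list lengths and distances, and each library left out of the choice. Counting was tested on simulated data. Scripts ran in Python 3.11.15 (scipy 1.17.1, matplotlib 3.10.9, numpy 2.4.6, pandas 2.3.3).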

Additional observations from a re-analysis of the deposited data

Results flagged for a closer look

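Some medians over the 695 regions had opposite signs in the 2 strains or the 2 genotypes, and none of these differences was tested. The median log2 width ratio of dnmt1 over WT was -0.00213 in CC-5155 (mt+) and 0.000939 in CC-5325 (mt−), which in bases is -3 and 1 bp. The median difference in fold enrichment rank, mt− minus mt+, was 0.27 percentile points in WT and -1.77 in dnmt1.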

How the results depend on the processing

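Of 192 alternative values for 16 results, 166 stayed within the 95% interval of the reported value (counts within 1.5 times), 26 moved and 0 changed sign. Only the rank differences could change sign. The number of regions is 5% of the shared regions, so it could not move where only the measure of width changed. All values stayed when peaks had to overlap by 50% of the shorter one, a −log10 q of at least 10, lists of equal length, the narrowest peak as measure, and each library left out of the choice. Taking the widest 2% gave 278 regions, a median width of 1922 bp, a fold percentile of 78.3, 4.32% with another wide region within 10 kb, 0% narrowed in the mt− strain by the 25% limit, a rank difference of 4.66 points in the mt+ strain, 15.8% lower in both knockouts and 1 region narrower by 100 bp in both. The widest 10% gave 1391 regions, 1528 bp, a fold percentile of 74.5, 19.1% with such a neighbour and 11 regions narrower by 100 bp in both. Choosing by WT widths gave 8 of the latter. With a limit of 1.5 times, 0% were wider and 0% narrower in the mt− strain. Summits lay within 100 bp in 43.7% and within 400 bp in 80.7%, and another wide region within 5 kb in 3.74% and within 20 kb in 21.9%. At least 50 bp wider in both strains were 46 and narrower 47, and at least 200 bp wider 6 and narrower 0. No share over all shared regions was counted at 50 or 200 bp, so these counts have no background. Ranks of −log10 q gave 0.909 points in the mt+ strain and 22.0% lower in both. The rank differences, the limits in bases and their alternatives were added after seeing the data. No paired analysis was possible because no result comes from a test and the labels give no replicate numbers. The lists give no read counts, so a peak that was split or cut short cannot be told from one with lower depth.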

Other observations

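On sequences other than the numbered chromosomes, 127 regions had exactly 1 peak per list and 2 (1.57%) reached the width threshold. They lay on contig 18, 19925 to 21797, with widths of 1757, 1822, 1832 and 1780 bp in the order of libraries above, and on contig 52, 8744 to 10560, with 1756, 1764, 1797 and 1769 bp. On numbered chromosomes 1108 regions lacked a peak in at least 1 library, and 4 of these had peaks as wide on average as the threshold. In WT mt−, 1 region stood out by width at chromosome 15, 2920604 to 2922455, with 1852 bp against 1430, 1464 and 1371 bp in the other 3, although its fold enrichment there, 8.85, lay within the range of the others.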
